A study of Rattus norvegicus with 12 samples.

Results

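A set of 6 genes that encode small GTPases or proteins acting on GTPases, G proteins and actin were followed across rat kidneys and kidney grafts: Rnd1, Rasd1, Gem, Rgs2, Abi3 and Rhob. They were taken by gene symbol, and all 6 were on the array, among 9653 named genes and 8825 probes without a single gene name (18478 features in all). Rgs2 had 2 probes and the other 5 genes had 1 each. The genes had been picked with their values on these same 12 arrays known, so their values and differences are given as a description and without a p-value. Relatives and partners of the 6, taken from lists of gene families, are tested further on. These lists were also chosen with earlier results of these data known.

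The study asked how brain death of the donor alters a kidney before and after transplantation. All animals were inbred male Lewis rats, so a transplanted kidney is an isograft, a graft between genetically alike animals. There were 4 groups of 3 arrays. Brain dead donor grafts were left kidneys of brain dead donors, sampled 1 h after orthotopic transplantation with 30 min of operative ischemia, with removal of the recipient's right kidney. Living donor grafts were treated in the same way, from donors without brain death. Brain dead donor kidneys were sampled before transplantation (0 h), from donors in which intracranial pressure had been raised gradually until the brain stem herniated and which were then kept on a ventilator for 6 h. Normal kidneys had neither treatment. Effects of brain death cannot be told apart from those of the 6 h on a ventilator, since no group had the ventilator alone. Age is not given in the labels.

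Each value is the log2 ratio of a kidney's own RNA (Cy3) over a common mixture made from 3 normal kidneys (Cy5), so 0 means the level of that mixture and 1 means a doubling. A ratio of this kind does not give the level of one gene against another, and the presence of kidney markers cannot be checked from it. Array medians lay between 0 and 0.0099, and the 12 arrays are few, which limits the precision. The SE of a difference comes from 1 model of all 4 groups. For a given gene it is the same in every comparison of 2 groups, so a widely spread group widens it in all of them. Replicate 21 of the brain dead donor grafts stood apart most, with a mean correlation of 0.851 with its own group and 0.78 with the other groups over all features, against at least 0.879 and 0.838 for the remaining arrays.

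Small GTPases are molecular switches that are active when bound to GTP and inactive when bound to GDP. Exchange factors switch them on and GTPase-activating proteins switch them off. Several of them act on the actin cytoskeleton and so on cell shape and contraction. Rnd1 is an unusual GTPase that stays bound to GTP and opposes RhoA, in part through the GTPase-activating protein p190 (Arhgap35). RhoB, the product of Rhob, sits largely on endosomes and its gene is an immediate early gene, switched on quickly by growth factors and stress. Rasd1, also known as Dexras1, is a Ras-like protein first found as induced by the glucocorticoid dexamethasone, and it modulates heterotrimeric G proteins. Gem belongs to the RGK group, which binds beta subunits of voltage-gated calcium channels and reduces calcium current. Rgs2 speeds GTP hydrolysis on the Gq alpha subunit and so dampens signals of vasoconstrictor receptors. Abi3 is an adaptor of the Abl interactor family found in the WAVE complex, which starts branched actin through Arp2/3.

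Promoter sequences are shown for Rasd1, Rgs2 and Rhob, the 3 genes with a RefSeq promoter entry (build GRCr8) of the 6. These 3 stood higher in grafts of both donor types than in normal kidneys, as did Rnd1, which has no such entry. Each sequence is the 250 bases before the annotated start, on the minus strand, written 5′ to 3′. Rasd1 is at chr10:45267683-45267932, Rgs2 at chr13:58352667-58352916 and Rhob at chr6:37085205-37085454. Capitals mark TGACG, the core of the cAMP response element, and CCAAT, each read on both strands, so that they also appear as CGTCA and ATTGG.
Rasd1: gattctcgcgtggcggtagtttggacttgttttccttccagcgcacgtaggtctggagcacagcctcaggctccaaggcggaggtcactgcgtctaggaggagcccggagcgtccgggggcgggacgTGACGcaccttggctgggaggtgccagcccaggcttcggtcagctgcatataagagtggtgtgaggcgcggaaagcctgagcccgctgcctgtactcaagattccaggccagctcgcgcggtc
Rgs2: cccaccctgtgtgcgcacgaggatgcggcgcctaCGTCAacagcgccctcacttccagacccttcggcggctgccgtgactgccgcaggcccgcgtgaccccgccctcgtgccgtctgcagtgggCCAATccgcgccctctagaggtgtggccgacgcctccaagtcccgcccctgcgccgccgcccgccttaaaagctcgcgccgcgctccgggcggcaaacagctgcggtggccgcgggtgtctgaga
Rhob: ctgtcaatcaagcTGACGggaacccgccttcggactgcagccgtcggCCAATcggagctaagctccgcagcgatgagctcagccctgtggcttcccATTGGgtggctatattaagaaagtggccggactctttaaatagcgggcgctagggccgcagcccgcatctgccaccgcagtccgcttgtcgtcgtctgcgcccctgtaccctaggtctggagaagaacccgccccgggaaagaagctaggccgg

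The core TGACG was present in all 3 of these promoters and in 18.2% of the 33469 rat promoter entries of the same length. CCAAT was present in those of Rgs2 and Rhob (2 matches in Rhob) and in 34.0% of entries. These 2 motifs were chosen after the sequences had been read. Of the other motifs searched on both strands, ACGTG, the core of the hypoxia response element, was found in the promoter of Rasd1 (1 match on each strand, the match on the plus strand overlapping TGACG by 2 letters) and in 16.6% of entries. The full element TGACGTCA (1.59% of entries), the AP-1 motif TGANTCA (6.34%), TATAAA (12.9%), the CArG box (1.5%) and the kB motif (6.33%) had no match in these windows. GC content was 64.0% for Rasd1, 72.4% for Rgs2 and 62.0% for Rhob, with a median of 51.2% over all entries.

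Rnd1 followed the donor's brain death and was little higher after transplantation alone. Its log2 ratio was 4.85, 3.42 and 4.48 in brain dead donor grafts, against 0.96, 1.45 and 0.51 in living donor grafts. Before transplantation it was 5.08, 4.72 and 3.17 in brain dead donor kidneys, against 0.34, 0.10 and 0.16 in normal kidneys. All 6 arrays from brain dead donors thus lay above the other 6. Rnd1 was among the 4 highest of the 9653 named genes on each of the 6 arrays from brain dead donors, while its rank was 58 to 768 on the living donor graft arrays and 1093 to 3192 on the normal arrays.

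In order of level, brain dead donor grafts (4.25 ± 0.74, SD, n = 3) and brain dead donor kidneys (4.32 ± 1.01) were highest and overlapped, with a difference of -0.07 ± 0.50 (SE) for grafts minus kidneys. Living donor grafts (0.97 ± 0.47) came next and lay above normal kidneys (0.20 ± 0.12) without overlap, by 0.77 ± 0.50. The difference between donors was 4.12 ± 0.50 before transplantation, a 17.4-fold higher ratio, and 3.28 ± 0.50, or 9.73-fold, at 1 h. The genes nearest to Rnd1, by the root mean square difference of log2 ratios over the 12 arrays among 9648 named genes, were the monocyte chemokine Ccl2 (0.734), the endothelial adhesion molecule Sele (0.81) and the apoptosis inhibitor Birc3 (1.08). Group means of Ccl2 were 4.24 in brain dead donor grafts, 0.715 in living donor grafts, 4 in brain dead donor kidneys and -0.133 in normal kidneys.

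Of the 17 measured leukocyte markers of 19 listed, 11 stood above 0 and 6 below it in brain dead donor kidneys against normal kidneys, with a median difference of 0.0883. Their mean difference there was 0.243, or 0.134 without the receptor Fcgr2b. Their mean log2 ratio per array was 0.113 to 0.428 in brain dead donor kidneys and -0.0762 to 0.0663 in normal kidneys, and -0.0327 to 0.376 in brain dead donor grafts and -0.0543 to 0.212 in living donor grafts. None of the 17 passed in limma in any of these comparisons. The largest difference was that of Fcgr2b (1.98 between brain dead donor kidneys and normal kidneys, adjusted p = 0.0591 in limma), while the pan-leukocyte marker Ptprc stood at 0.295 (adjusted p = 0.81). The 14 measured endothelial markers of 16 listed had array means of -0.169 to 0.0291 in brain dead donor grafts, 0.00753 to 0.0927 in living donor grafts, -0.138 to -0.0375 in brain dead donor kidneys and -0.0234 to 0.0756 in normal kidneys. Pecam1 passed higher in brain dead donor kidneys against normal kidneys (0.29 ± 0.06, adjusted p = 0.0263 in limma), against a median of -0.0982 for the endothelial list. Its probes gave 0.305, 0.0557 and 0.505, and its adjusted p in limma was 0.0933 without normal kidney replicate 2. Kdr, the VEGF receptor, passed lower in brain dead donor grafts against normal kidneys (-0.65 ± 0.17, adjusted p = 0.0302 in limma), where Pecam1 passed higher (0.25 ± 0.06). With an array left out, adjusted p in limma reached 0.0992 for Kdr and 0.0701 for Pecam1 in that comparison. The part of leukocytes and endothelium in the Rnd1 values was not tested.

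**Figure D1:**
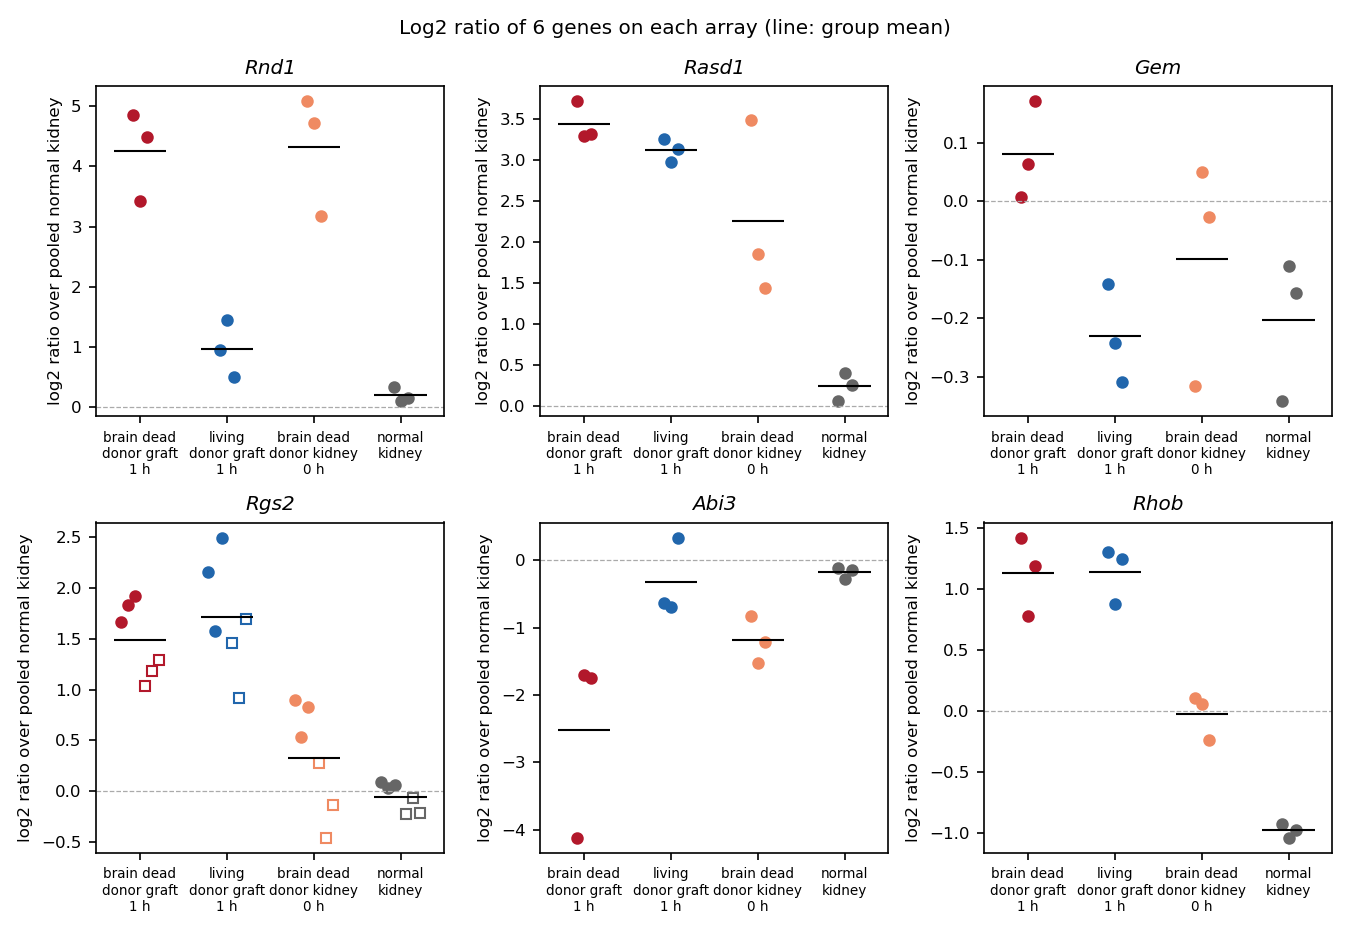
Log2 ratio over pooled normal kidney RNA (y axis) of each of the 6 genes on each of the 12 arrays, by group, with a line at the group mean and a separate y scale for each gene. Circles are single probes, and open squares are the second probe of Rgs2. Rnd1 is above 3 on all 6 arrays from brain dead donors, Rasd1, Rgs2 and Rhob are high in both kinds of graft, and Abi3 reaches -4.12 on 1 array.

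Rasd1 was high in grafts of both donor types and, less evenly, in brain dead donor kidneys before transplantation. The values were 3.72, 3.29 and 3.32 in brain dead donor grafts and 3.26, 2.97 and 3.14 in living donor grafts. Brain dead donor kidneys had 3.49, 1.85 and 1.43, against 0.05, 0.40 and 0.25 in normal kidneys. Replicate 1 of the brain dead donor kidneys lay in the range of the grafts, and replicates 2 and 3 lay between grafts and normal kidneys.

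The order of levels was brain dead donor grafts (3.44 ± 0.24, SD, n = 3), living donor grafts (3.12 ± 0.14), brain dead donor kidneys (2.26 ± 1.09) and normal kidneys (0.23 ± 0.17). The grafts of the 2 donor types did not overlap but lay close, with a difference of 0.32 ± 0.42 (SE) for brain dead minus living donors. This SE also holds the wide spread of the brain dead donor kidneys. The range of brain dead donor kidneys overlapped that of both kinds of graft. Living donor grafts stood 2.89 ± 0.42 above normal kidneys, or 7.40-fold. Before transplantation, the kidneys of brain dead donors stood 2.02 ± 0.42 above normal kidneys, or 4.07-fold, and 1.41 above them without replicate 1. The grafts of brain dead donors stood 1.19 ± 0.42 above brain dead donor kidneys at 0 h, 1.80 without replicate 1 of these kidneys and 0.77 without replicate 3.

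Nearest to Rasd1 was Cebpd, which encodes the acute phase transcription factor C/EBP delta (root mean square difference 0.432), followed by the AP-1 subunit Junb (0.596) and the NF-kB inhibitor Nfkbia (0.686). Cebpd had group means of 3.49 in brain dead donor grafts, 2.49 in living donor grafts, 2.56 in brain dead donor kidneys and 0.302 in normal kidneys. The brain dead donor kidney means of Junb (2.1) and Nfkbia (2.03) likewise lay between those of brain dead donor grafts (2.79 and 2.63) and normal kidneys (0.874 and 0.313).

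Rhob stood higher in brain dead donor kidneys than in normal kidneys, and higher again in grafts of both donor types. Its values were 1.42, 0.78 and 1.19 in brain dead donor grafts and 1.30, 0.87 and 1.24 in living donor grafts. They were 0.11, 0.05 and -0.24 in brain dead donor kidneys, against -0.92, -1.04 and -0.97 in normal kidneys. The ranges of grafts from both donor types overlapped, and neither kidney group at 0 h overlapped any other group.

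Brain dead donor grafts (1.13 ± 0.32, SD, n = 3) and living donor grafts (1.14 ± 0.23) differed by -0.01 ± 0.17 (SE) for brain dead minus living donors. Brain dead donor grafts lay 1.15 ± 0.17 above brain dead donor kidneys (-0.02 ± 0.18), and these lay 0.95 ± 0.17 above normal kidneys (-0.98 ± 0.06), a 1.94-fold higher ratio. Living donor grafts lay 2.12 ± 0.17 above normal kidneys, or 4.34-fold. The normal kidneys were not at 0 for this gene although the comparison RNA was also normal kidney. Rhob had the 22nd lowest mean of the 9653 named genes in them, whose median was 0.00859, so a Rhob log2 ratio near 0 in brain dead donor kidneys is not the level of the normal kidney arrays. It is near the level of the mixture, and the differences given here are from the arrays. Whether the kidneys on the arrays are those in the mixture is not stated. Why the 2 differed for Rhob was not tested. The genes nearest to Rhob, chosen on all 12 arrays including the normal ones, were Pnrc1, a nuclear receptor coactivator (root mean square difference 0.44, normal mean -1.03), the annexin Anxa1 (0.46, normal mean -0.461) and Edn1, the vasoconstrictor endothelin 1 (0.526, normal mean -0.971).

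Rgs2 stood higher in grafts of both donor types and differed little between brain dead donor kidneys and normal kidneys. As the mean of 2 probes it was 1.35, 1.5 and 1.61 in brain dead donor grafts and 1.81, 1.25 and 2.10 in living donor grafts. At 0 h, brain dead donor kidneys had 0.59, 0.040 and 0.34, against -0.063, -0.018 and -0.078 in normal kidneys. The grafts overlapped each other and none of the kidneys at 0 h.

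Living donor grafts (1.72 ± 0.43, SD, n = 3) stood 1.77 ± 0.20 (SE) above normal kidneys (-0.05 ± 0.03), or 3.41-fold. Brain dead donor grafts (1.49 ± 0.13) stood 1.16 ± 0.20 above brain dead donor kidneys (0.32 ± 0.27) and -0.23 ± 0.20 from living donor grafts. The 2 probes of Rgs2 differed in what they showed before transplantation. The first gave a difference of 0.69 between brain dead donor kidneys and normal kidneys, with 0.90, 0.54 and 0.83 against 0.095, 0.035 and 0.057. The second gave 0.06, with 0.28, -0.46 and -0.14 against -0.22, -0.071 and -0.21, where the groups overlapped.

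After transplantation both probes of Rgs2 moved together, with differences of 2.02 and 1.52 for living donor grafts against normal kidneys and 1.05 and 1.28 for brain dead donor grafts against brain dead donor kidneys. The nearest genes were Dusp5 (root mean square difference 0.318), Klf4 (0.421) and Dusp1 (0.436). Dusp5 and Dusp1 encode phosphatases that switch off MAP kinases, and Klf4 is an early zinc finger transcription factor. Dusp1 had group means of 1.47 in brain dead donor grafts, 2.09 in living donor grafts, -0.0583 in brain dead donor kidneys and 0.0817 in normal kidneys.

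Kidney cell markers differed a little in the same comparisons in which Rasd1, Rgs2 and Rhob stood higher. The 10 measured proximal tubule markers of 14 listed had a mean log2 ratio per array of -0.401 to -0.243 in brain dead donor grafts and -0.322 to -0.204 in living donor grafts. It was -0.194 to 0.0852 in brain dead donor kidneys and -0.184 to -0.0173 in normal kidneys, so that grafts and kidneys at 0 h did not overlap. Of the 10, Lrp2 (-0.54 ± 0.12, adjusted p = 0.0128) and Slc34a1 (-0.45 ± 0.12, adjusted p = 0.0263) passed in limma, both in brain dead donor grafts against normal kidneys. With an array left out, adjusted p in limma reached 0.048 for Lrp2 and 0.0885 for Slc34a1. The 8 measured smooth muscle markers of 10 listed had array means of 0.124 to 0.202 in brain dead donor grafts, 0.14 to 0.319 in living donor grafts, 0.114 to 0.136 in brain dead donor kidneys and -0.0744 to 0.149 in normal kidneys. Tagln, a smooth muscle actin-binding protein, passed in brain dead donor grafts against normal kidneys (0.52 ± 0.13, adjusted p = 0.0276 in limma, and 0.0848 without normal kidney replicate 1). The part of cell composition in these results was not tested.

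Abi3 was lower in kidneys and grafts of brain dead donors, with 1 array far below the rest. Its values were -4.12, -1.70 and -1.75 in brain dead donor grafts (replicates 21, 23 and 27), against -0.63, -0.69 and 0.34 in living donor grafts. At 0 h, brain dead donor kidneys had -0.83, -1.53 and -1.21, against -0.11, -0.28 and -0.15 in normal kidneys. All 6 arrays from brain dead donors lay below the other 6. On replicate 21 Abi3 was the lowest of the 9653 named genes, and it was 11th and 16th from the bottom on replicates 23 and 27.

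Living donor grafts (-0.33 ± 0.58, SD, n = 3) had a range that held that of normal kidneys (-0.18 ± 0.09), with a difference of -0.15 ± 0.57 (SE). The kidneys of brain dead donors (-1.19 ± 0.35) lay below normal kidneys without overlap, with a difference of -1.01 ± 0.57. This SE also holds the wide spread of the brain dead donor grafts. The grafts of brain dead donors (-2.52 ± 1.38) differed from living donor grafts by -2.19 ± 0.57, or to 0.218 of their ratio. Without replicate 21 the difference was -1.40. Against brain dead donor kidneys the grafts stood at -1.33 ± 0.57, and at -0.54 without replicate 21.

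The genes nearest to Abi3 were the phospholipid transporter Atp10a (root mean square difference 0.629), the spindle protein Ska2 (0.646) and the corepressor Rcor3 (0.676). In whole kidney RNA, fewer cells of a type and less RNA per cell cannot be told apart. Intensities were not analysed here, so a low ratio cannot be told from a spot near background.

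Gem hardly varied. It had 0.0081, 0.064 and 0.17 in brain dead donor grafts against -0.14, -0.24 and -0.31 in living donor grafts. Values were -0.32, 0.049 and -0.028 in brain dead donor kidneys, against -0.34, -0.11 and -0.16 in normal kidneys. Its group means spanned 0.312 log2 units, against 1.77 to 4.12 for the other 5 genes. Brain dead donor grafts lay above living donor grafts without overlap, by 0.31 ± 0.10 (SE), a 1.24-fold higher ratio. They also lay above normal kidneys without overlap, by 0.28 ± 0.10, and the other pairs of neighbouring groups overlapped.

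**Figure D2:**
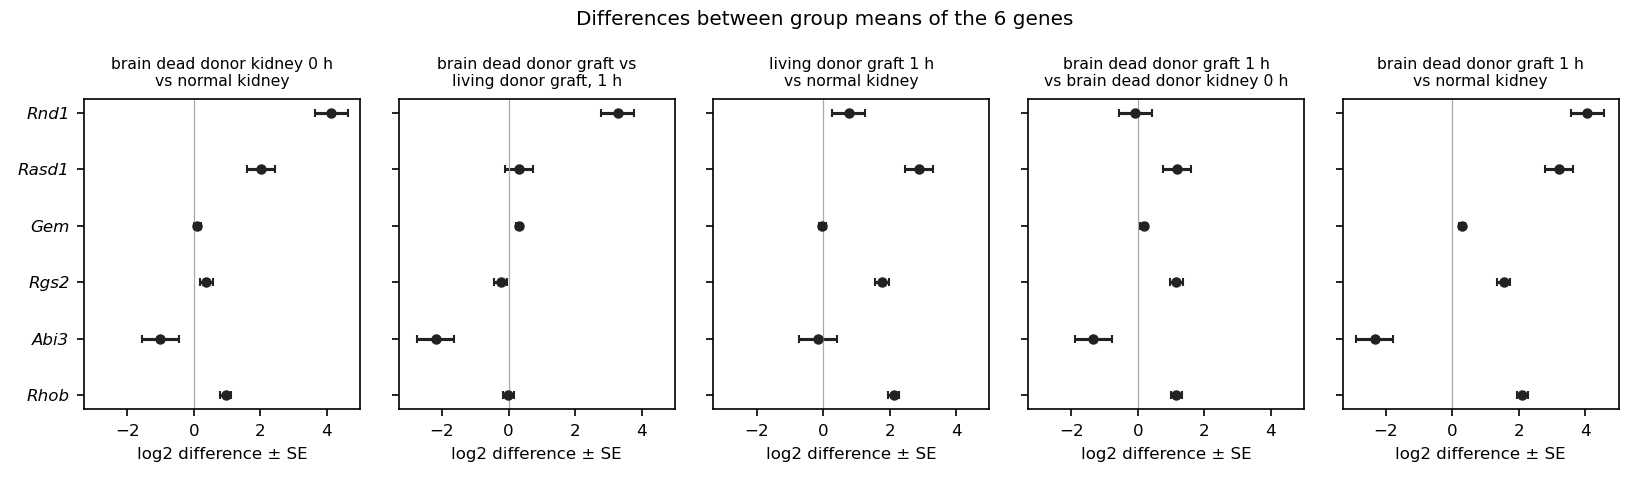
Differences between group means on the log2 scale (x axis, ± SE of the limma fit, 3 arrays per group) for each of the 6 genes in 5 comparisons, which share arrays with each other. Rnd1 and Abi3 show the widest differences between the grafts, Rasd1, Rgs2 and Rhob are higher by 1.77 or more in living donor grafts than in normal kidneys, and the differences of Gem reach at most 0.31.

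The 6 genes can be set beside all features in counts, which describe how they were picked and are no evidence about them. The threshold was an adjusted p of 0.05 in limma. In brain dead donor kidneys against normal kidneys 3 of the 6 passed, all higher (Rnd1, Rasd1 and Rhob), against 4.65% of all features, and 5 of 6 showed no overlap of replicates, against 23.9%. Between the grafts of the 2 donor types 2 passed, Rnd1 higher and Abi3 lower, against 6.76%, and 4 did not overlap, against 25.8%. The Abi3 call was lost in 10 of the 12 fits that left out 1 array. It was kept without brain dead donor graft replicate 21 and without replicate 23. The fits that lost it include all those without a brain dead donor kidney or a normal kidney, which are not in this comparison. In living donor grafts against normal kidneys 3 passed, all higher (Rasd1, Rgs2 and Rhob), against 0.731%, and 4 did not overlap, against 18.5%.

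For grafts against kidneys of brain dead donors none of the 6 passed, against 0.0541% of all features, or 10 features. Of the 6, 3 did not overlap (Rgs2 and Rhob higher, Abi3 lower), against 18.8%. In brain dead donor grafts against normal kidneys 5 passed, 4 higher and Abi3 lower, against 15.2%, and all 6 did not overlap, against 34.6%. These comparisons share groups of arrays with each other. Some of the other calls were also lost with an array left out. A call lost with each array of a group in turn does not point to a single array. Each normal kidney, when left out, cost Rasd1 its call in brain dead donor kidneys and in living donor grafts, and Abi3 its call in brain dead donor grafts against normal kidneys. Rasd1 also lost its call in brain dead donor kidneys when their replicate 2 was left out, and in living donor grafts when replicate 22 or 24 was left out. Rhob lost its call in brain dead donor kidneys when their replicate 2 or normal kidney replicate 2 was left out. The Rnd1 and Rgs2 calls held in all 12 such fits. So did those of Rhob in both kinds of graft and of Rasd1 in brain dead donor grafts, each against normal kidneys. As the genes were picked on these arrays, calls that held are a description and no evidence about them.

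Whether the donor effect was different after transplantation is given by the interaction of donor and transplantation, for which 0% of features passed in limma, with 964 of 18478 at an unadjusted p under 0.05 and 3 passing with array weights. For Rasd1 the interaction estimate was -1.70 ± 0.59 (SE), or -1.08 without replicate 1 of the brain dead donor kidneys. For Rhob it was -0.97 ± 0.24, for Rnd1 -0.84 ± 0.70, for Rgs2 -0.61 ± 0.28, for Gem 0.21 ± 0.14 and for Abi3 -1.19 ± 0.80. Leaving out brain dead donor graft replicate 21 gave -0.39 for Abi3. A negative value means that the difference between donors was smaller, or more negative, at 1 h than before transplantation.

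**Figure D3:**
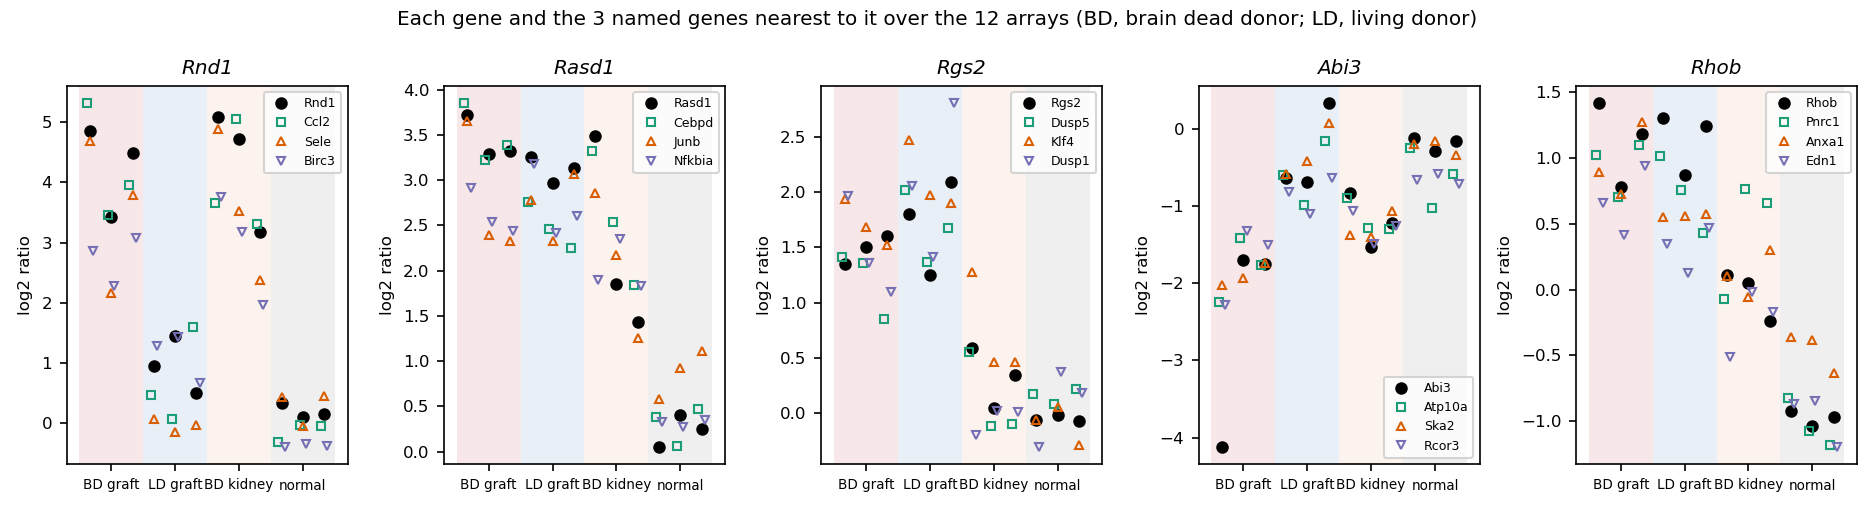
Log2 ratio (y axis) of 5 of the genes (black circles) on each of the 12 arrays, with the 3 named genes nearest to each (open symbols), arrays grouped by donor and time. Rnd1 lies with Ccl2 and Sele, high on all 6 arrays from brain dead donors, and Rgs2 lies with Dusp5, Klf4 and Dusp1, high in grafts of both donor types.

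Relatives and partners of the 6 genes were taken from 8 lists, with 201 measured genes beside the 6, and were tested in the limma fit over all features. In brain dead donor kidneys against normal kidneys 1 of 201 passed (0.498%, against 4.65% of all features), with a median difference of -0.00221. The count was 26 with array weights and 0 to 5 with an array left out. The 1 gene was Rhot2, a GTPase of the outer mitochondrial membrane, which was lower by -0.52 ± 0.10 (SE, adjusted p = 0.0189, and 0.0846 without replicate 2 of the brain dead donor kidneys).

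Rnd2, Rhoa, Rasd2, Abi1 and Abi2, measured relatives of Rnd1, Rhob, Rasd1 and Abi3, did not pass at 0 h between donors, between the grafts or in living donor grafts against normal kidneys. RhoA, the GTPase that Rnd1 opposes, stood at 0.07 ± 0.12 (SE) in brain dead donor kidneys against normal kidneys (limma adjusted p = 0.87), at -0.04 ± 0.12 between the grafts (0.884) and at 0.07 ± 0.12 in living donor grafts against normal kidneys (0.895). Rnd2 stood at 0.17 ± 0.06, 0.18 ± 0.06 and 0.03 ± 0.06 in the same comparisons and did not pass. Rasd2, the other member of the Dexras group, stood at -0.24 ± 0.18, -0.08 ± 0.18 and -0.24 ± 0.18. Abi1 and Abi2, the relatives of Abi3, stood at 0.10 ± 0.12 and -0.18 ± 0.07 in brain dead donor kidneys against normal kidneys and at -0.00 ± 0.12 and -0.14 ± 0.07 between the grafts.

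Rrad and Rem2, the measured RGK relatives of Gem, likewise did not pass in any comparison. Rrad stood at 0.42 ± 0.31 (SE) in living donor grafts against normal kidneys, with 0.30, 0.45 and 0.80 against -0.10, 0.32 and 0.06. The 14 measured calcium channel subunits, among them the beta subunits that Gem binds, had a median of -0.0481 in that comparison, between -0.633 and 0.276, and none passed.

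Among the RGS proteins, Rgs1, which acts on Gi and Gq signals chiefly in leukocytes, was the 1 relative that passed in living donor grafts against normal kidneys, also of all 201 genes (0.498%, against 0.731% of all features). It had 0.49, 0.94 and 0.45 in brain dead donor grafts and 1.47, 1.42 and 2.38 in living donor grafts. Values were -0.21, -0.27 and -0.27 in brain dead donor kidneys, against -0.16, -0.07 and -0.25 in normal kidneys. Rgs1 was 1.92 ± 0.23 (SE) higher in living donor grafts than in normal kidneys (adjusted p = 0.00566, and at most 0.0398 with any array left out).

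Rgs1 differed between the donors as well, with -1.13 ± 0.23 (SE) for brain dead minus living donor grafts (limma adjusted p = 0.0190, up to 0.0627 with an array left out). Rgs2, beside it in the same family, differed by -0.23 ± 0.20 there. Of the 16 RGS genes measured beside Rgs2, Rgs12 also passed between the grafts, at -0.21 ± 0.05 (adjusted p = 0.0349). Rgs3, Rgs4 and Rgs5 did not pass in any of the 6 comparisons, Rgs5 standing at -0.19 ± 0.09 between the grafts.

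Between brain dead and living donor grafts 11 of the 201 relatives passed, 2 higher and 9 lower (5.47%, against 6.76% of all features, with a median difference of -0.000941). Rhot2 was lower by -0.68 ± 0.10 (SE, adjusted p = 0.00537) and was the 1 of the 11 that passed whichever array was left out. Its values were -0.66, -0.61 and -0.47 in brain dead donor grafts against 0.09, 0.05 and 0.17 in living donor grafts. Dock6, an exchange factor of Rac1 and Cdc42, stood lower by -0.95 ± 0.20 (adjusted p = 0.0235), with -0.87, -0.97 and -1.69 against -0.41, -0.29 and 0.02.

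Also lower between the grafts were Cdc42ep5, an effector of Cdc42 (-0.49 ± 0.10, adjusted p = 0.0183), the Ras relative Mras (-0.48 ± 0.10, adjusted p = 0.0221) and the adaptor Nck2 (-0.38 ± 0.08, adjusted p = 0.0192). The exchange factor Arhgef40 (-0.38 ± 0.07, adjusted p = 0.0161) and the GTPase-activating protein Srgap2 (-0.31 ± 0.08, adjusted p = 0.0387) were lower too, each through 1 of 2 probes (-0.673 and -0.0927 for Arhgef40, -0.634 and 0.0162 for Srgap2). Higher were Rhobtb3 (0.56 ± 0.11, adjusted p = 0.0163, probes at 0.957 and 0.168) and Arhgap35, the p190 protein that Rnd proteins bind (0.30 ± 0.07, adjusted p = 0.0433). The 4 probes of Arhgap35 gave 0.851, 0.268, 0.0283 and 0.0432. Against normal kidneys, Arhgap35 stood at -0.35 in living donor grafts and at -0.06 in brain dead donor grafts. Rhobtb3 stood at -0.44 and 0.12 in the same order. None of these differences from normal kidneys passed, and Arhgap35 was thus not higher in brain dead donor grafts than in normal kidneys. Leaving out brain dead donor graft replicate 21 gave 6 in place of 11, leaving out replicate 27 gave 3, and leaving out living donor graft replicate 22, 24 or 25 gave 4 each.

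Against normal kidneys, brain dead donor grafts had 19 of the 201 relatives past the threshold, 6 higher and 13 lower (9.45%, against 15.2% of all features). Beside Rhot2 (-0.77 ± 0.10), Dock6 (-1.11 ± 0.20) and Cdc42ep5 (-0.73 ± 0.10), lower genes included Racgap1, a GTPase-activating protein of cell division (-0.45 ± 0.09), and the WAVE complex subunit Cyfip1 (-0.25 ± 0.06). Abi2 also passed (-0.25 ± 0.07, adjusted p = 0.0420 in limma), as did Cacnb2, a calcium channel beta subunit (-0.43 ± 0.12, adjusted p = 0.0385). Higher were the Ras-like Rasl11b (0.63 ± 0.11, adjusted p = 0.00451), Rap1b (0.43 ± 0.12), the Cdc42 effector Cdc42ep2 (0.48 ± 0.12) and Arpc4, a subunit of Arp2/3 (0.37 ± 0.10). The exchange factor Arhgef28 (-0.45 ± 0.08) and the semaphorin receptor Plxnd1 (-0.30 ± 0.07) were lower through 1 probe each (-0.953 beside 0.0491 for Arhgef28, -0.976 beside 0.0164 and 0.0729 for Plxnd1). Arhgef40, Mras, Nck2 and Rgs12 were lower here as between the grafts, and Rgs1 was higher (0.79 ± 0.23, adjusted p = 0.0439). Of the 19, 7 passed whichever array was left out. Leaving out brain dead donor graft replicate 21 gave 11 in place of 19, and leaving out normal kidney replicate 1, 2 or 3 gave 10, 10 or 12.

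Podocyte (5 of 8 measured), distal nephron (9 of 13) and platelet (4 of 9) markers had 1 gene past the threshold, Podxl, which was lower between the grafts (-0.61 ± 0.14, adjusted p = 0.0346 in limma) and in brain dead donor grafts against normal kidneys (-0.75 ± 0.14). With an array left out, the adjusted p of Podxl in limma reached 0.114 and 0.0319 in these comparisons. None of the 26 measured heterotrimeric G protein subunits passed in any comparison, with medians between -0.0238 and 0.038 on the log2 scale. For grafts against kidneys of brain dead donors none of the 201 relatives passed in limma, in a comparison where 0.0541% of all features did.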

How the data were processed

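RNA of 12 rat kidneys or grafts was hybridised on 2-colour Agilent arrays against a mixture of 3 normal kidneys. Per the series' design text, the authors used Agilent Feature Extraction and GeneSpring 7.0, with per-spot, per-chip and lowess steps on each array, and took Cy3 over Cy5. The scale of the deposited table, log10, was inferred from its values, which lie around 0 and end at 2 on either side, and they were multiplied by 3.322 to give log2. The program that wrote the table is unstated, and the direction rests on the design text. Exact zeros (0.702% of values) were kept.

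Groups came from the sample titles, because 1 shared description stands on all arrays and contradicts most titles. The labels do not say whether replicates are separate animals, so a p-value reflects only how far these arrays vary, which may be technical. Symbols came from the platform annotation: of 21575 probes, 12750 had 1 symbol, 5 several and 8820 none. Probes of a symbol were averaged. A limma model (3.58.1, R 4.3.3) of the 4 group means used all 12 arrays, with Benjamini-Hochberg adjustment over 18478 features. All adjusted p-values are from this fit. Its code was run on simulated data with independent noise and changes added to brain dead donor kidneys only. Deviations shared by many genes of an array were not simulated. Of 411 genes in the lists, 272 were measured. Members and lists were chosen with earlier results of these data known. From each marker list all genes past the threshold were named. Up to 4 genes per family list and comparison were named by smallest p, and the 3 nearest genes were named for members whose group means span at least 1 log2 unit. Motifs TGACG and CCAAT and the relatives Rnd2, RhoA, Rasd2, Rrad, Rem2, Abi1 and Rgs3 to Rgs5 were chosen outside this rule. No slide or scan batch could be tested. Alternatives were quantile normalization, median centring, array weights, fits of 2 groups, zeros as missing, the most variable probe, another variance prior, a replicate block and each array left out. An item withheld from this text is not reported here.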

Additional observations from a re-analysis of the deposited data

How the results depend on the processing

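No difference of the 6 genes that had passed in limma changed direction under the alternatives tried. The genes were picked on these arrays and the alternatives reuse the same values, so this is a description and no evidence about them. With quantile normalization Rhob stood at 1.18 in brain dead donor kidneys against normal kidneys, 2.31 in living donor grafts against normal kidneys and -1.37 in the interaction, Rasd1 at 3.15 in living donor grafts against normal kidneys, and Rgs2 at 0.91 and 1.29 in brain dead donor grafts against brain dead donor and normal kidneys. With the more variable probe Rgs2 stood at 0.69 in brain dead donor kidneys and 1.75 in brain dead donor grafts against normal kidneys and at -0.97 in the interaction (-0.28 with array weights). With single arrays left out the interaction ranged from -1.60 to -0.39 for Abi3 and from -2.11 to -1.08 for Rasd1. The Abi3 call between the grafts was lost with quantile normalization and in the fit of 2 groups, where Abi3 also lost its call against normal kidneys and Rasd1 its call in brain dead donor kidneys.

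Counts of features moved more. In brain dead donor kidneys against normal kidneys 860 became 2852 with array weights, 350 in a fit of 2 groups and 165 to 1186 with an array left out. Between the grafts 1249 became 298 with quantile normalization, 427 in a fit of 2 groups and 557 to 1526. In living donor grafts 135 became 483 with array weights and 33 to 210. In brain dead donor grafts against brain dead donor kidneys 10 became 0 with quantile normalization and in a fit of 2 groups, 68 with array weights, 6 with the other variance prior and 0 to 14. Against normal kidneys they numbered 1769 to 3049, and in the interaction 3 with array weights and 0 to 4.

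Of the 201 relatives, the 1 that passed before transplantation became 4 with quantile normalization, 26 with array weights, 0 in a fit of 2 groups, 4 with the more variable probe and 0 to 5 with an array left out. The 11 between the grafts became 4 with quantile normalization, 1 in a fit of 2 groups and 3 to 13. The 1 in living donor grafts became 3 with quantile normalization, 4 with array weights, 2 in a fit of 2 groups, 2 with zeros as missing and 1 to 3. The 19 in brain dead donor grafts against normal kidneys became 10 to 23. Leaving out arrays for the relatives was chosen after seeing the data. The cause of these moves was not tested.

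Replicate numbers 1 to 3 are shared by brain dead donor and normal kidneys. Same-numbered arrays deviated together with r of 0.328, 0.1 and 0.0337, and differently numbered ones with r between -0.274 and 0.278. With so few arrays, these values cannot tell whether same-numbered arrays are paired, and the labels do not say. With a replicate block in the fit of these 2 groups 2 features and 0 relatives passed, and Rnd1, Rasd1 and Rhob were not among the 2. The block terms leave this small fit little from which to estimate the spread, so the low counts do not show that differences were absent.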
